A study of Mus musculus with 10 samples.

Results

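Rbm3 and Cirbp encode a pair of closely related RNA-binding proteins that mammalian cells make in larger amounts when they are cooled. Their rows were found by gene symbol in GENCODE mouse release M21, and they are 2 of the 57010 genes in the table and 2 of the 15539 genes with enough counts to be tested. They were selected on their measured levels in these retinas, which were known to differ between the vectors and to run opposite to those of Hspa8, the constitutive heat shock protein gene. The group difference of these 3 genes is therefore given as a description, with no test.

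The table holds bulk RNA sequencing of retina from 10 mice that were 6 to 8 weeks old when the study assigned them to groups of 5. One group received AAV2-GFP and the other AAV206-GFP, each by injection into the vitreous, and the retinas were taken 14 days later. Both groups thus carry an adeno-associated virus (AAV) vector with green fluorescent protein (GFP) and differ in the capsid, and uninjected retinas were not analysed here. The labels give no strain, sex, time of day or sequencing batch, and nothing beyond the count of mice says that each library is a separate animal, so the p-values measure the spread between these libraries.

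Each of the proteins has one RNA recognition motif followed by a glycine-rich tail. Mild cooling raises both, through transcription and through splicing that leaves fewer transcripts to be degraded, and both bind messenger RNAs and alter their stability and translation. RBM3 is known for preserving synapses in cooled or degenerating nervous tissue. Warming acts on the other side of the same temperature response: the heat shock genes, which encode protein-folding chaperones, rise with heat and protein stress, and HSPA8 (HSC70) is their abundant constitutive member.

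In GRCm38 coordinates Rbm3 (ENSMUSG00000031167) lies on the minus strand at chrX:8138975-8145880, Cirbp (ENSMUSG00000045193) on the plus strand at chr10:80165985-80172786 and Hspa8 (ENSMUSG00000015656) on the plus strand at chr9:40800984-40810087. All 3 are protein-coding. GENCODE lists 11 transcripts of Rbm3, of which 6 are coding, 2 are targets of nonsense-mediated decay and 2 retain an intron. For Cirbp it lists 7, of which 2 are coding, 1 is a decay target and 4 retain an intron. The counts are per gene, so coding and decay-targeted forms cannot be told apart in them.

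The kinship of the genes is shown by the same 60 coding bases (121 to 180 from the A of the start codon) of the principal coding transcript of each, with the codons of the RNP1 motif, the RNA-contacting core of the RNA recognition motif, in capitals.
Rbm3-201: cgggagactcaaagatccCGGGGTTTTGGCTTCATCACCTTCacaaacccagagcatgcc
Cirbp-202: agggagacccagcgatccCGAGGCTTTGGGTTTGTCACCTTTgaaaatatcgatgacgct
In this stretch 40 of 60 bases were identical, and 18 of 24 in the capitals. Over the whole coding sequences (465 and 519 bases, stop codon included) 332 of 453 aligned bases were identical, or 73.3%, and the longest run without a difference was 11 bases. Reads of 150 bases are far longer than that run, and neither gene had a fractional count in any library, so no read appears to have been divided between them or with another gene.

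Cirbp is also the gene in which a mild cold response element was described, a short motif bound by the transcription factor SP1. The more upstream of its 2 windows in the RefSeq promoter table is printed up to the first GENCODE exon that begins inside it (GRCm38.p6, plus strand, chr10:80167589-80167777). That element (TCCCCGCC) and the GC boxes (GGGCGG, read on both strands) are in capitals.
Cirbp promoter: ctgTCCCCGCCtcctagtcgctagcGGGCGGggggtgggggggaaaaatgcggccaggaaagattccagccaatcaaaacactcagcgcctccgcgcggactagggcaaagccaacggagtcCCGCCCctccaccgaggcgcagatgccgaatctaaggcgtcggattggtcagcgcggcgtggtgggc
The 189 bases lie within the gene span of GENCODE but overlap no annotated exon, and 66.1% of them are G or C. GENCODE starts the gene upstream of them, at 80165985, so the exon that follows them is not its first. The printed bases held 1 match to the cold response element, on the plus strand at position 4, whereas 2.86% of 32851 windows of the same length in that table held one on either strand. Those windows were the first 189 bases of every entry, not matched to the printed bases in G and C content or distance to an exon. GC boxes matched at position 26 on the plus strand and at 123 on the minus strand, against 22.6% of windows with at least 1. The CCAAT box (CCAAT) matched at positions 70 and 166, against 26.5% of windows. The heat shock element core (GAANNTTC) and the cAMP response element (TGACGTCA) had no match here, and 4.89% and 0.685% of windows held them. The table's other Cirbp window starts downstream of the start of that exon and was not searched. No match overlapped one of another motif, and a match is a run of letters, not a site shown to be used.

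The libraries held 10989845 to 12752588 counts each, so that 3 counts, taken as the floor of detection, correspond to 0.231 to 0.273 CPM. Levels are in CPM, counts relative to the library size after trimmed mean of M values (TMM) scaling. Rod marker genes summed to at least 51721 CPM in every library, and retinal pigment epithelium markers to at most 35.5 CPM. Some libraries stood apart in other respects. AAV2-GFP replicates 1 and 4 were high in interferon-induced genes (mean log2(CPM + 1) of 5.02 and 5.68 over 12 tested genes, against 2.68 to 3.73 in the other 8 mice). AAV206-GFP replicates 1 and 5 deviated from their group towards genes of high GC content (Spearman's rho 0.31 and 0.26 across genes). AAV206-GFP replicate 4 (-0.31) and AAV2-GFP replicate 1 (-0.23) deviated the other way, and the remaining libraries lay between -0.18 and 0.15. Across genes the log2 fold change of AAV206-GFP over AAV2-GFP had a rho of -0.19 with GC content. AAV206-GFP replicate 4 also held 114 CPM of Y-linked genes, against 225 CPM or more in every other mouse. In edgeR's quasi-likelihood test 1747 of 15539 genes (11.2%) had a Benjamini-Hochberg adjusted p under 0.05 between the vectors, 924 higher (5.95%) and 823 lower (5.3%) with AAV206-GFP. A gene is said below to have risen or fallen where it passed that test.

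Rbm3 was 1.74-fold and Cirbp 1.77-fold higher in the AAV206-GFP retinas, and Hspa8 was at 0.511 of its AAV2-GFP level. Rbm3 was at 93.0, 70.1, 82.6, 90.3 and 81.8 CPM in AAV2-GFP replicates 1 to 5 and at 142, 140, 145, 142 and 160 CPM in AAV206-GFP replicates 1 to 5. Every AAV206-GFP mouse was above every AAV2-GFP mouse, as for 5.41% of all tested genes (9.78% had no overlap in one or the other direction). The means were 83.6 ± 8.94 and 145 ± 8.11 CPM (SD, n = 5), which is 0.80 on the log2 scale with a standard error (SE) of 0.07. AAV2-GFP replicate 2 was the lowest mouse of its group and AAV206-GFP replicate 5 the highest of its own.

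Cirbp was at 118, 119, 125, 124 and 125 CPM in AAV2-GFP replicates 1 to 5 and at 266, 202, 200, 197 and 217 CPM in AAV206-GFP replicates 1 to 5. Again no mouse of one group reached the range of the other, and AAV206-GFP replicate 1 stood above the rest. The means were 122 ± 3.61 and 216 ± 28.8 CPM (SD, n = 5), or 0.82 on the log2 scale (SE 0.08). Without AAV206-GFP replicate 1 this log2 fold change was 0.74. In bulk retina more cells that express a gene and more RNA per cell cannot be told apart.

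Hspa8, the chaperone against which the levels were set, was at 1351, 1387, 1514, 1451 and 1371 CPM in AAV2-GFP replicates 1 to 5. In AAV206-GFP replicates 1 to 5 it was at 681, 694, 765, 699 and 779 CPM. The groups were again wholly apart, in the opposite direction. The means were 1415 ± 67.0 and 723 ± 45.1 CPM (SD, n = 5), or -0.97 on the log2 scale (SE 0.06). Its estimated counts were fractional in all 10 libraries, so some of its reads are shared with other genes and its level is less certain than those of Rbm3 and Cirbp.

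**Figure D1:**
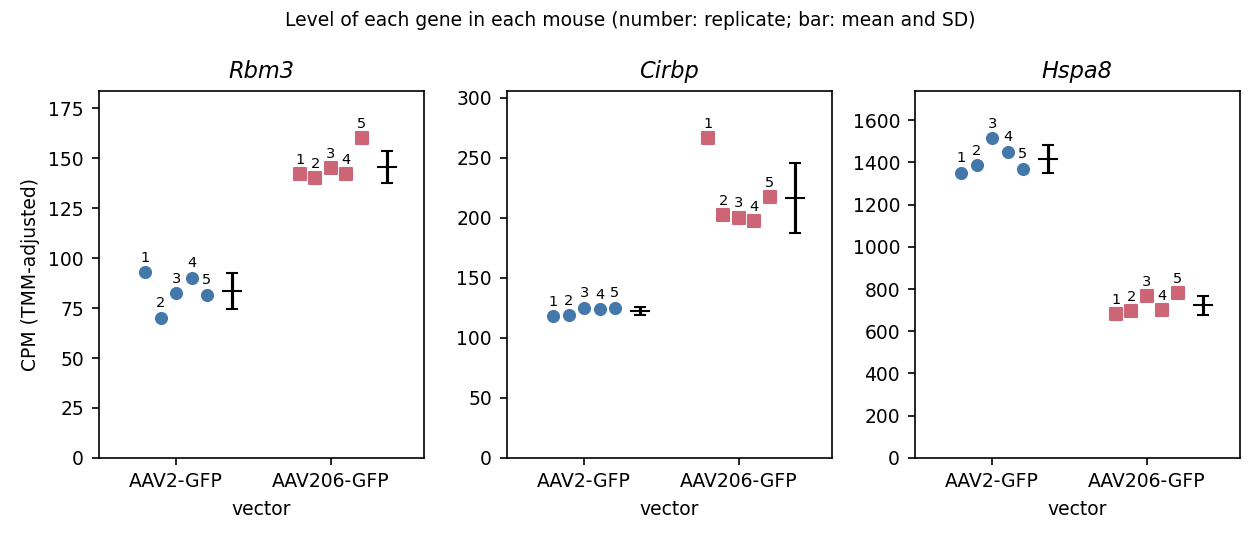
Level in CPM (vertical axis, from 0) of Rbm3, Cirbp and Hspa8 in each mouse, by vector (horizontal axis). Numbers are replicates and the black bars are the mean and SD of 5 mice. In the Rbm3 and Cirbp panels all AAV206-GFP mice lie above all AAV2-GFP mice, from 140 against at most 93.0 CPM and from 197 against at most 125 CPM, and in the Hspa8 panel the order is reversed.

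Mean levels reached 50 CPM in 4614 tested genes, of which 6 had a log2 fold change at or above that of Rbm3 and 4 at or above that of Cirbp, each count with the gene itself left in. Among all 15539 tested genes, where low counts give larger fold changes, the counts were 363 and 334. Both genes were selected with this difference known, so a high place follows from the selection and is only a description. Rbm3 rested on 782 to 1887 counts per library and Cirbp on 1303 to 3167. Counting error alone on such numbers is 1.78% to 3.58%. The coefficient of variation between AAV2-GFP mice was 10.7% for Rbm3 and 2.95% for Cirbp, and between AAV206-GFP mice 5.58% and 13.3%. The spread of Cirbp with AAV2-GFP was thus close to counting error, while the other 3 were above it.

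The antisense gene Rbm3os overlaps Rbm3 and held 0 to 10 counts per library. Whether the counting used strand is not given in the sources used here, but that number is small beside the counts of Rbm3. No other gene overlaps Cirbp.

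Dividing the counts of 2 genes within a mouse takes out any scaling between libraries. The ratio depends on transcript lengths, so it orders mice and not genes. For log2(Rbm3/Hspa8), AAV2-GFP replicates 1 to 5 were at -3.86, -4.31, -4.20, -4.01 and -4.07, and AAV206-GFP replicates 1 to 5 at -2.26, -2.31, -2.40, -2.30 and -2.29. The AAV206-GFP mice lay close together, with an SD of 0.05 against 0.17. For every 100 Hspa8 counts there were 5.05 to 6.88 Rbm3 counts with AAV2-GFP and 18.9 to 20.8 with AAV206-GFP, and the mean ratio was 3.42-fold higher.

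For log2(Cirbp/Hspa8), AAV2-GFP replicates 1 to 5 were at -3.52, -3.54, -3.60, -3.55 and -3.45, and AAV206-GFP replicates 1 to 5 at -1.36, -1.78, -1.94, -1.83 and -1.84. Here the AAV206-GFP mice had the wider spread (SD 0.23 against 0.05), set by replicate 1. The mean ratio was 3.44-fold higher with AAV206-GFP. The ratio of the cold-inducible genes to each other, log2(Rbm3/Cirbp), averaged -0.56 ± 0.16 in AAV2-GFP mice and -0.56 ± 0.19 in AAV206-GFP mice (SD, n = 5). The groups overlapped, and their means differed by -0.01.

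**Figure D2:**
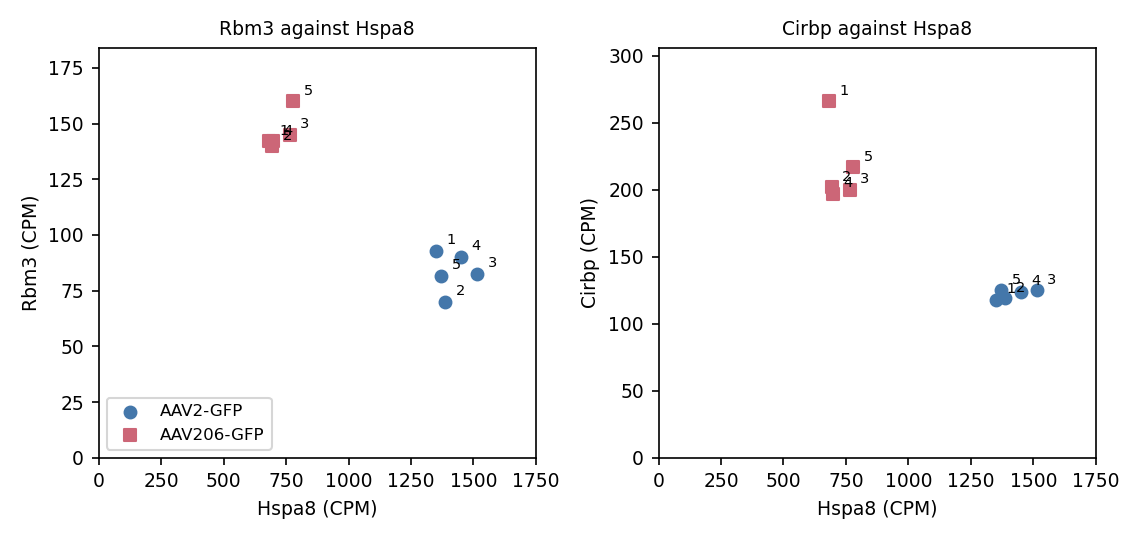
Level of Rbm3 (left) and Cirbp (right) in CPM against Hspa8 in CPM, 1 point per mouse with its replicate number, linear axes from 0. The mice form separate clouds by vector, with Hspa8 at 1351 to 1514 CPM for AAV2-GFP and at 681 to 779 CPM for AAV206-GFP.

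Because the mice fall into separate clouds, no correlation was taken over all 10. The relations within groups were measured instead on the deviation of log2(CPM + 1) in each mouse from the mean of its own group (n = 10 mice), with an exact two-sided permutation of mice within groups and adjustment over the 11 relations computed. Rbm3 and Hspa8 gave r = 0.29 (exact permutation p = 0.395, adjusted 0.84) and rho = 0.35 (exact permutation p = 0.38, adjusted 0.748), with r = 0.12 after leaving out the 2 mice farthest from the median in Hspa8. Without AAV2-GFP replicate 1 it was r = 0.56 (exact permutation p = 0.113, adjusted 0.309), and without AAV206-GFP replicate 5 r = 0.08 (exact permutation p = 0.835, adjusted 0.947). Cirbp and Hspa8 gave r = -0.18 (exact permutation p = 0.833, adjusted 0.945) and rho = 0.05 (exact permutation p = 0.942, adjusted 0.942), with r = -0.38 without the 2 farthest mice. The sign of this relation rested on AAV206-GFP replicate 1, without which r was 0.63 (exact permutation p = 0.099, adjusted 0.218). Taken by vector, Rbm3 with Hspa8 had r = 0.02 in AAV2-GFP mice and 0.80 in AAV206-GFP mice (n = 5 each). For Cirbp with Hspa8 these values were 0.62 and -0.35, and no test was made within a single vector. The opposition between the cold-inducible genes and Hspa8 that separates the vectors was therefore not detected among mice that had received the same vector. A p-value of this size with 5 mice per group does not show that no relation exists.

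Rbm3 and Cirbp did not track each other within groups either, with r = 0.01 (exact permutation p = 0.962, adjusted 0.962), rho = -0.25 (exact permutation p = 0.544, adjusted 0.748) and r = -0.01 without the 2 farthest mice. Without AAV206-GFP replicate 1, which was highest in Cirbp but not in Rbm3, r was 0.32 (exact permutation p = 0.39, adjusted 0.536). With the mean of the heat shock genes other than Hspa8, Rbm3 gave r = 0.48 (exact permutation p = 0.154, adjusted 0.422) and Cirbp r = -0.15 (exact permutation p = 0.805, adjusted 0.945). Without AAV206-GFP replicate 1 the latter was 0.80 (exact permutation p = 0.0219, adjusted 0.126), so its sign too rested on that mouse. Without AAV2-GFP replicate 1 the former was 0.70 (exact permutation p = 0.0267, adjusted 0.147).

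**Figure D3:**
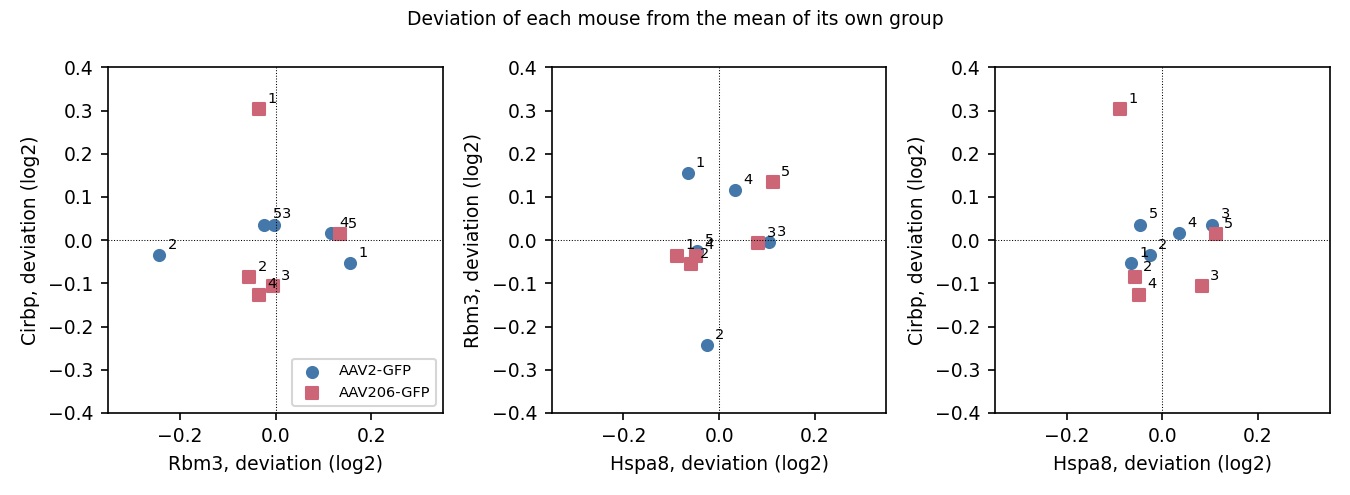
Deviation of each mouse from the mean of its own group, in log2(CPM + 1), for Rbm3 and Cirbp, Hspa8 and Rbm3, and Hspa8 and Cirbp (left to right), with replicate numbers beside the points. Over the 10 mice r was 0.01, 0.29 and -0.18, and none passed its test, and AAV206-GFP replicate 1 stands apart in Cirbp.

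Of the 11 relations, 1 passed: Cirbp was higher in mice with more RNA of the CLK kinases and SR splicing factors, r = 0.78 (exact permutation p = 0.00187, adjusted 0.0206). Its rank correlation did not pass, with rho = 0.80 (exact permutation p = 0.0192, adjusted 0.211). It also missed the threshold without the 2 farthest mice, with r = 0.70 (exact permutation p = 0.0764, adjusted 0.42), and without each AAV206-GFP mouse in turn. With offsets for GC content it was r = 0.61 (exact permutation p = 0.185, adjusted 0.504). For Rbm3 the same relation was r = 0.28 (exact permutation p = 0.458, adjusted 0.84), and -0.04 without AAV2-GFP replicate 2 (exact permutation p = 0.884, adjusted 0.972).

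Rbm3 was at its highest among AAV2-GFP mice in replicates 1 and 4, the mice with most interferon-induced RNA. Over all mice its within-group relation to that list was r = 0.73 (exact permutation p = 0.0826, adjusted 0.333), with rho = 0.30 (exact permutation p = 0.462, adjusted 0.748) and r = 0.85 without the 2 farthest mice (exact permutation p = 0.204, adjusted 0.57). Taken by vector, r was 0.82 in AAV2-GFP mice and 0.00 in AAV206-GFP mice. The list mean had an SD of 1.29 in the former and 0.15 in the latter, so the value over all mice was set by the AAV2-GFP mice. For Cirbp r over all mice was -0.02 (exact permutation p = 0.859, adjusted 0.945). Of the 12 tested interferon genes 10 fell with AAV206-GFP in the edgeR test (83.3%, where 5.3% of all genes fell), but the groups were without overlap in 1 of the 12. AAV2-GFP replicates 2 and 5, with list means of 2.84 and 2.80, lay within the AAV206-GFP range of 2.68 to 3.09. Without AAV2-GFP replicates 1 and 4 the log2 fold change was 0.89 for Rbm3 and 0.80 for Cirbp, so both differences were about as large without those mice.

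Total count gave r = 0.29 with Rbm3 (exact permutation p = 0.54, adjusted 0.849) and 0.44 with Cirbp (exact permutation p = 0.0907, adjusted 0.333). For Rbm3 it was 0.84 without the 2 farthest mice (exact permutation p = 0.0236, adjusted 0.26), 0.75 without AAV2-GFP replicate 1 (exact permutation p = 0.0476, adjusted 0.174) and -0.01 without AAV2-GFP replicate 2 (exact permutation p = 0.992, adjusted 0.992). For Cirbp it was 0.73 without AAV206-GFP replicate 1 (exact permutation p = 0.0326, adjusted 0.126). The GC content, as a mean over transcripts, was 57.8% for Cirbp and 46.4% for Rbm3, where the median gene had 50.5%. With GC offsets the log2 fold change was 0.88 for Cirbp and 0.75 for Rbm3. Erythrocyte markers also moved with the vector, 4 of 5 having risen where 5.95% of all tested genes rose, with summed levels of 67.7 to 85.6 CPM against 100 to 318 CPM. All 5 carried fractional counts in some or all libraries and are uncertain. Lens markers were lower, 2 of 3 tested having fallen where 5.3% of all tested genes fell, at 11.1 to 33.2 against 0.819 to 12.3 CPM. The 12.3 CPM was that of AAV206-GFP replicate 1, and the median sum of its group was 1.72 CPM. The part of erythrocyte or lens RNA in the levels of Rbm3 and Cirbp was not tested.

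The heat shock genes other than Hspa8 fell together with it. Of the 26 listed and tested, 18 fell and 0 rose in the edgeR test (69.2% called, against 11.2% of all genes), and in all 18 the groups did not overlap, where 4.36% of all tested genes were without overlap in that direction. The median log2 fold change of the list was -0.43, against -0.0095 over all tested genes. The list was drawn up knowing that Hspa8 was lower, and is no independent evidence of that direction.

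Described here are the 8 genes of the list with the smallest p-values, and a larger fold change, -1.06, belonged to Hspb1, a small heat shock protein gene of 7.16 ± 1.22 CPM with AAV2-GFP (edgeR adjusted p = 0.0017, with fractional counts in 4 libraries), named after its value was seen. Hsph1, a nucleotide exchange factor of HSP70, fell from 89.5 ± 3.40 to 50.7 ± 8.12 CPM (SD, n = 5), or -0.82 on the log2 scale (SE 0.09, edgeR adjusted p = 5.0e-05). Chordc1, an HSP90 cochaperone, fell from 65.3 ± 5.10 to 41.6 ± 2.48 CPM, or -0.65 on the log2 scale (SE 0.07, edgeR adjusted p = 3.4e-05). Stip1, which bridges HSP70 and HSP90, fell by 0.59 and Dnajb1, an HSP40 that hands clients to HSP70, by 0.58 on the log2 scale (edgeR adjusted p = 6.4e-05 and 6.7e-05).

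St13, which stabilises the client-bound form of HSC70, fell from 183 ± 7.68 to 130 ± 9.93 CPM, and Hsp90ab1, the constitutive HSP90, from 608 ± 37.3 to 453 ± 9.83 CPM (SD, n = 5; edgeR adjusted p = 0.000182 and 0.000175). Hspa1b, the heat-inducible HSP70, had a log2 fold change of -0.72 and Ahsa1, the activator of the HSP90 ATPase, of -0.60, but both carried fractional counts and are uncertain. Hsf1, the transcription factor that drives this response, and Hspa4l were at 0.05 and 0.16 on the log2 scale and did not pass. These 2 are named after their values were seen. All 8 genes with the smallest p-values (those above apart from Hspb1, Hsf1 and Hspa4l) passed in each of the 23 alternative fits, including those without AAV2-GFP replicates 1 and 4, where 14 genes of the list passed.

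**Figure D4:**
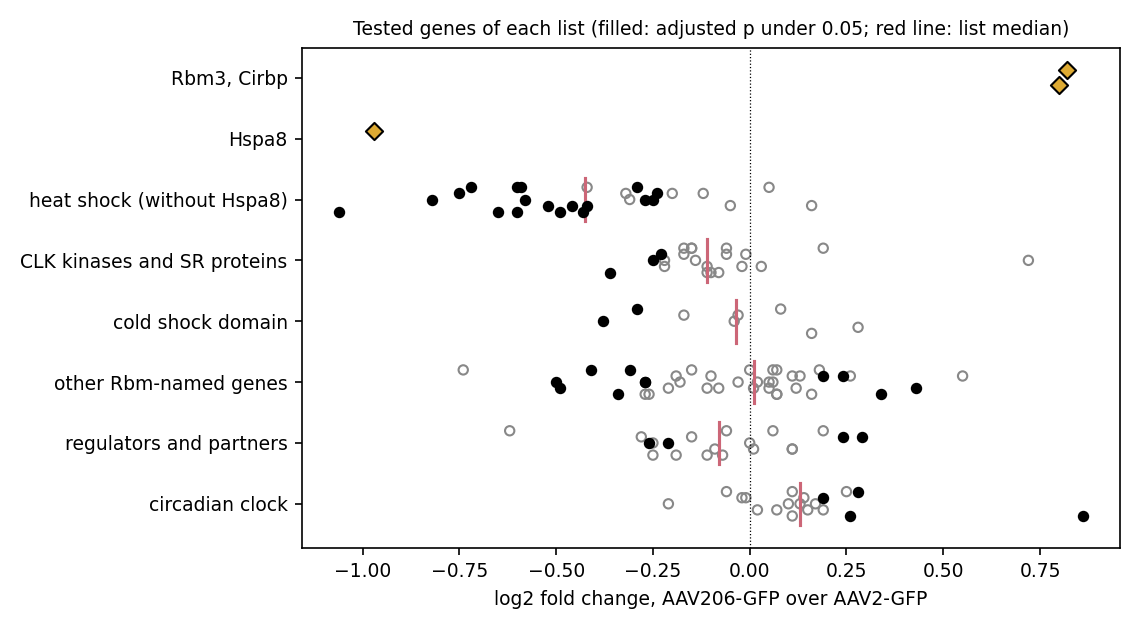
Log2 fold change of AAV206-GFP over AAV2-GFP (horizontal axis) for each tested gene of the lists named on the vertical axis. Filled points passed the edgeR test, open points did not, red lines are list medians, and diamonds are Rbm3, Cirbp and Hspa8, which have no test here. Rbm3 and Cirbp, selected with their difference known, lie at 0.80 and 0.82. They are to the right of every other gene shown except the clock gene Npas2 at 0.86. The heat shock list is shifted to the left with a median of -0.43.

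CLK kinases are switched on as temperature falls and phosphorylate SR proteins, which in turn set the splicing of temperature-responsive transcripts. None of the CLK genes passed, Clk1 having a log2 fold change of -0.17 (edgeR adjusted p = 0.0806; named after its value was seen). Of 21 listed genes 3 fell and 0 rose, or 14.3% against 11.2% of all genes, with a median log2 fold change of -0.11. The SR-related splicing activator Tra2a fell from 202 ± 7.82 to 157 ± 16.2 CPM (SD, n = 5; edgeR adjusted p = 0.00461). Srsf6 fell by 0.23 and Srsf7 by 0.25 on the log2 scale (edgeR adjusted p = 0.0184 and 0.0264). Srsf6 missed the threshold without AAV206-GFP replicate 3, and Srsf7 without AAV2-GFP replicate 3 or 4 or AAV206-GFP replicate 2, 4 or 5.

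The cold shock domain is an unrelated fold, named after bacterial cold shock proteins, and its vertebrate carriers served as the nearest comparison by name. Of 8 tested genes 2 fell and 0 rose (25% called, against 11.2% of all genes). Ybx3 fell from 597 ± 44.0 to 459 ± 40.8 CPM and Ybx1 from 439 ± 54.4 to 359 ± 32.1 CPM (SD, n = 5; edgeR adjusted p = 0.00289 and 0.0378). Both bind messenger RNA and hold it from translation. The call of Ybx1 was lost without AAV2-GFP replicate 3, 4 or 5 or AAV206-GFP replicate 2, 3 or 4. The log2 fold changes of Csdc2, Carhsp1, Ybx2, Lin28a and Lin28b, which did not pass, were -0.17, 0.08, -0.03, 0.28 and 0.16.

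The Rbm symbols stand for RNA-binding motif proteins, and these genes were taken by symbol alone. Of 39 tested, 4 rose and 7 fell (28.2% called, against 11.2% of all genes), with a median log2 fold change of 0.01 and a range of -0.74 to 0.55. All 39 therefore lay below the 0.80 of Rbm3, which was itself selected with that difference known. The 5 with the smallest p-values were Rbm28, a nucleolar splicing and ribosome assembly factor (log2 fold change -0.50, edgeR adjusted p = 0.000219), the coactivator Rbm14 (-0.41, edgeR adjusted p = 0.00108), the splicing regulator Rbm6 (-0.31, edgeR adjusted p = 0.00232), Rbm12b1 (-0.49, edgeR adjusted p = 0.00312) and Rbm33 (0.43, edgeR adjusted p = 0.00514). Rbm14 and Rbm12b1 carried fractional counts in all libraries and are uncertain. These 5 passed in all 23 alternatives, while the number for the whole list fell to 6 without AAV2-GFP replicate 4 or AAV206-GFP replicate 1, 2 or 3, and to 7 without AAV2-GFP replicate 3 or 5 or AAV206-GFP replicate 4.

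Upstream of RBM3, the neurotrophin receptor TrkB signals through phospholipase C gamma and CREB. Its gene Ntrk2 was at 71.6 ± 5.70 and 68.5 ± 6.08 CPM (SD, n = 5), its ligand Bdnf at 11.6 ± 2.46 and 9.55 ± 1.37 CPM, and Creb1 at 108 ± 7.66 and 109 ± 9.54 CPM, and none of the 3 passed the edgeR test (adjusted p = 0.615, 0.266 and 0.925). Plcg1 rose from 41.7 ± 4.53 to 51.0 ± 4.82 CPM (edgeR adjusted p = 0.0382). Sp1, the factor named for the cold response element printed above, was at 80.5 ± 9.70 and 84.1 ± 8.48 CPM (edgeR adjusted p = 0.667).

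Downstream and around the proteins, Rtn3, whose translation RBM3 promotes at synapses, did not pass, with 567 ± 22.2 and 539 ± 18.2 CPM (SD, n = 5; edgeR adjusted p = 0.375). Tnpo1, the import receptor of CIRBP, and Prmt1, which methylates it, were at 0.11 and -0.25 on the log2 scale and did not pass either (edgeR adjusted p = 0.451 and 0.0702). CIRBP enters stress granules, and of their components Tial1 fell from 146 ± 5.96 to 122 ± 5.66 CPM (edgeR adjusted p = 0.00822) and Caprin1 from 232 ± 6.77 to 200 ± 15.3 CPM (edgeR adjusted p = 0.0359), while Tia1 rose from 156 ± 6.12 to 185 ± 20.5 CPM (edgeR adjusted p = 0.0461, with fractional counts in 2 libraries). G3bp1 and G3bp2 had log2 fold changes of -0.15 and -0.00.

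Among described RNA targets of CIRBP, Txn1, Rpa2 and Atr had log2 fold changes of -0.19, -0.09 and 0.19 and did not pass, nor did Eif4e, Eif4ebp1 and Mapk3 (-0.11, -0.62 and -0.25). Eif4ebp1 was a gene of only 1.66 ± 0.611 and 1.07 ± 0.604 CPM (SD, n = 5), and its log2 fold change had an SE of 0.41. The receptor genes for CIRBP released from cells were near or below the floor: Tlr4 and Ly96 averaged at most 0.820 and 0.382 CPM, and Trem1 had no count in any library. Of the 20 tested regulators and partners, 2 rose and 2 fell, or 20% against 11.2% of all genes. Of these 4 calls, that of Tial1 held without each single library. Among the fits that left out 1 library, Caprin1 passed only without AAV2-GFP replicate 1 or 2 or AAV206-GFP replicate 3, Plcg1 only without AAV2-GFP replicate 1 or 2 or AAV206-GFP replicate 5, and Tia1 only without AAV206-GFP replicate 5. The list counted 1 called gene without AAV2-GFP replicate 3, 4 or 5 or without AAV206-GFP replicate 1, 2 or 4.

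CIRBP binds clock transcripts and is needed for the amplitude of their rhythm. Of the 19 listed clock genes 4 rose and 0 fell (21.1% called, against 11.2% of all genes), with a median log2 fold change of 0.13. The repressor Cry1 rose from 66.1 ± 0.851 to 80.4 ± 6.16 CPM (SD, n = 5; edgeR adjusted p = 0.00937) and passed without each single library. Per3, Cry2 and Npas2 rose by 0.26, 0.19 and 0.86 on the log2 scale (edgeR adjusted p = 0.0290, 0.0431 and 0.0369). Per3 missed the threshold without AAV2-GFP replicate 3, 4 or 5 or AAV206-GFP replicate 1, 2 or 4, Npas2 without AAV2-GFP replicate 1, 2, 4 or 5 or AAV206-GFP replicate 2, 3 or 4, and Cry2 without any library except AAV206-GFP replicate 5. Npas2 was a gene of 2.23 ± 0.679 and 4.08 ± 0.938 CPM. Without AAV2-GFP replicates 1 and 4 no clock gene passed, and the hour of tissue collection is not given.

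The genes most like each of the cold-inducible pair across mice were then sought, by Pearson's r of within-group deviations over 10 mice, among 7828 genes with whole counts and at least 10 CPM on average. These values describe the top of a long ranking and carry no test. For Rbm3 the highest were Ruvbl1, an ATPase of chromatin remodelling complexes, at 0.92, Pla2g15 at 0.89, Ggh at 0.88, Shisa5 at 0.85 and Btbd10 at 0.84. The lowest were Rnf157 at -0.91, Sun1 at -0.90, Cep83os at -0.89, Mxd4 at -0.87 and Bicral at -0.86. In every gene of these except Shisa5, AAV2-GFP replicate 2 was the mouse standing farthest from the rest of its group. That mouse was also the lowest of its group in Rbm3, so these values lean on a single mouse.

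For Cirbp the highest were Trmt1, a tRNA methyltransferase, and Lmtk3 and Faf2 at 0.96 each, then Trmu and Arrdc2 at 0.95. The lowest were Arhgap5 at -0.98, Tab3 and Pdk3 at -0.96, Fbxl5 at -0.95 and Ranbp2 at -0.94. The transcripts of the 5 highest had a GC content of 50.4% to 64.3% and those of the 5 lowest of 35.1% to 53.5%, while for Rbm3 the ranges were 40.9% to 55.3% and 42.9% to 54.6%. AAV206-GFP replicate 1, the highest mouse in Cirbp, stood farthest from the rest of its group in every gene named here for Cirbp. The values for Cirbp thus lean on a single mouse. AAV206-GFP replicate 1 was also the one that deviated most towards high GC content, and the part of GC content in this ranking was not tested. The lists of the 2 genes shared no gene, and Cirbp stood at rank 3872 of 7828 for Rbm3.

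The differences of these genes between the vectors were at about the background share of 11.2% called, and nothing is read from them about likeness. Of the 10 highest, Arrdc2 rose, from 10.5 ± 0.733 to 20.7 ± 4.87 CPM (SD, n = 5; edgeR adjusted p = 0.000383), and the other 9 did not pass. Of the 10 lowest, Cep83os rose from 18.8 ± 1.71 to 33.7 ± 2.63 CPM and Rnf157 from 203 ± 17.3 to 278 ± 5.35 CPM (edgeR adjusted p = 2.5e-05 and 0.000298).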

How the data were processed

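Retinas of 10 mice were sequenced, 5 per vector, and libraries were grouped by their titles. Per the labels' protocols RNA was extracted with Trizol and sequenced as 150-base pairs on a NovaSeq, and the submitters' processing notes name STAR 2.7.10b, RSEM 1.3.1 and mm10. The deposited values are expected counts per gene, unscaled, 5.95% of them fractional, and were rounded. Genes kept by edgeR's filterByExpr (minimum count 10) were scaled by TMM and tested with the quasi-likelihood F test (edgeR 4.0.16, R 4.3.3), all 10 libraries and no covariate, with Benjamini-Hochberg adjustment at 0.05. GENCODE M21 named 98.4% of tested genes. The standard error is the absolute log2 fold change over the square root of F.

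Rbm3, Cirbp and the gene lists were chosen with earlier results of these data known. The named genes are the lists' called genes (at most 8 by p, 5 for the Rbm names), all tested cold shock domain genes and regulators, and the 5 highest and 5 lowest in likeness. Some genes of the lists enter the counts but are not reported here by name. Interferon and marker lists are given as counts, sums, means or medians. Of their genes only Grm6 and Opn1mw are named, after their values were seen. In RefSeq's promoter table Cirbp matched, and Rbm3 and Hspa8 did not.

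The total count ranged from 10989845 to 12752588, and the floor of 3 counts covers counting error only. Libraries of one group differed by more than sampling noise (chi-square 3.68 to 22.3 per degree of freedom). On simulated counts for 15346 genes edgeR recovered 82.7% of 2-fold and 58.2% of 1.5-fold changes, with 5 false among 143 calls. Alternatives were other scalings, filters, DESeq2 1.42.0, limma-voom (limma 3.58.1), robust dispersions, a replicate block, the interferon list as a covariate and each library left out; GC offsets in 20 bins and leaving out AAV2-GFP replicates 1 and 4 together were added after the data were seen.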

Additional observations from a re-analysis of the deposited data

Results flagged for a closer look

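Each value below was taken up because 1 mouse lay far from the other 4 of its group (Dixon's ratio of its gap to the range of the group, at a chance level of about 1 in 20). In all 154 groups of values were examined, and 22 were found, where about 7.7 would be reached by chance in values not chosen on these mice. The likeness genes were chosen on these same mice, and the ratios reuse genes. The 22 therefore cannot be set directly against the 7.7. No cause was tested for any of them.

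Rbm3 was at 160 CPM in AAV206-GFP replicate 5, against 140 to 145 CPM in the rest of its group. In AAV206-GFP replicate 1 log2(Cirbp/Hspa8) was -1.36, against -1.94 to -1.78, and log2(Rbm3/Cirbp) was -0.908, against -0.537 to -0.442. The level of Cirbp in that mouse, 266 CPM, was just short of the limit by itself (ratio 0.706, limit 0.71).

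AAV206-GFP replicate 1 was also high for Plcg1 (59.4 CPM), Carhsp1 (18.4 CPM), Trmt1 (58.9 CPM), Faf2 (87.1 CPM) and Arrdc2 (29.3 CPM), and low for Creb1 (92.3 CPM), Tnpo1 (599 CPM), Eif4e (82.9 CPM) and Fbxl5 (264 CPM). Trmt1, Faf2, Arrdc2 and Fbxl5 were chosen for following or opposing Cirbp, so the same mouse is counted again in them.

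AAV206-GFP replicate 4 had 114 CPM in the sum of 4 Y-linked genes, against 231 to 240 CPM in the rest of its group, and was high for Sp1 (98.8 CPM). Rbm3 is X-linked and was at 142 CPM in that mouse, within the range of its group, and its log2 fold change without the mouse was 0.81.

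AAV206-GFP replicate 3 was high for Ntrk2 (79 CPM) and replicate 5 for Rpa2 (21.1 CPM). Among AAV2-GFP mice, replicate 1 was low for Lmtk3 (56.6 CPM) and replicate 2 low for Tia1 (145 CPM) and Pla2g15 (16.4 CPM) and high for Bicral (125 CPM). Replicate 3 was high for Chordc1 (74 CPM), and replicate 4 was low for Carhsp1 (10.4 CPM). Lmtk3, Pla2g15 and Bicral were chosen for following or opposing Cirbp or Rbm3 in these mice.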

How the results depend on the processing

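The log2 fold changes stayed at 0.75 to 0.91 for Rbm3, 0.74 to 0.88 for Cirbp and -0.99 to -0.95 for Hspa8 over 23 alternatives each, and the heat shock list had 13 to 20 called genes. No called value changed sign, but relations that had missed the threshold did, among them these: without AAV206-GFP replicate 1 Cirbp gave r = 0.63 with Hspa8 and 0.80 with the heat shock mean, and without AAV2-GFP replicate 2 Rbm3 gave -0.04 with the CLK and SR mean and -0.01 with total count. Genes called over the whole table numbered 1747, and 991 to 1912 when a library was left out (991 without AAV2-GFP replicate 4, and 1061 and 1056 without AAV206-GFP replicates 2 and 4), 1085 with the replicate block, 582 with the interferon covariate, 985 without AAV2-GFP replicates 1 and 4, and 2254 with DESeq2. The interferon covariate gave 1 CLK and SR gene, 1 cold shock domain gene, 6 Rbm-named genes, 0 regulators and partners and 0 clock genes (DESeq2 without it: 7, 2, 13, 6 and 6). At an unadjusted p under 0.05, edgeR with that covariate passed 2934 genes of the whole table. Without AAV2-GFP replicates 1 and 4 the counts were 1 for CLK and SR, 6 for Rbm-named, 1 for regulators and 0 for clock genes. The CLK and SR list had 6 with voom sample weights and 5 with GC offsets, and the clock list 2 without a filter. Leaving out single libraries gave 2 to 5 (CLK and SR), 1 to 2 (cold shock domain), 6 to 11 (Rbm-named), 1 to 4 (regulators) and 1 to 4 (clock). The relation of Cirbp to the CLK and SR list lost its call with DESeq2 size factors (r = 0.79, exact permutation adjusted p = 0.0542), linear CPM (r = 0.73, exact permutation adjusted p = 0.143), GC offsets (r = 0.61, exact permutation adjusted p = 0.504) and without the 2 farthest mice (r = 0.70, exact permutation adjusted p = 0.42), and ran from 0.72 to 0.81 without single libraries. Causes were not tested. Replicate numbers are shared by the groups, but same-numbered mice did not deviate together (r of -0.05 to 0.04, 1 of 10 mice closest to its own number), so they were not treated as pairs. That comparison over all genes cannot exclude a shared factor acting on some of them, and the labels do not say whether the numbers pair mice. With the replicate block the counts were 7 Rbm-named genes, 2 regulators, 2 clock genes and 1 cold shock domain gene. Levels under 0.273 CPM are not distinguished from 0 at this depth.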

Other observations

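The pseudogene Rbm3-ps had no count in AAV2-GFP mice and averaged 0.0358 CPM in AAV206-GFP mice, under the floor, and 6 of the 52 other genes whose symbol begins with Rbm had no count in any library. Among retinal cell markers 1 of 6 rod and 2 of 5 cone genes rose in edgeR, where 5.95% of all tested genes rose. In the same test 1 of 4 bipolar and 1 of 4 ganglion cell genes fell, where 5.3% of all tested genes fell, and no Müller glia gene of 3 passed. With so few genes per list nothing is read from these counts. List medians of the log2 fold change lay between -0.19 and 0.11, with single genes from -0.66 (the bipolar gene Grm6, with fractional counts in all libraries, edgeR adjusted p = 0.00225) to 0.47 (the cone opsin gene Opn1mw, edgeR adjusted p = 0.000881). Pigment epithelium markers (1 of 4 tested genes fell, against 5.3% of all genes) summed to 10.4 to 35.5 CPM and 13.3 to 20.4 CPM, and T cell markers to at most 12.1 CPM. Microglia and macrophage markers (1 of 4 tested genes fell, against 5.3% of all genes) summed to 18.3 to 140 CPM in AAV2-GFP mice and to 15.6 to 20.1 CPM in the others. The highest sums of both lists, 12.1 CPM for T cells and 140 CPM, were those of AAV2-GFP replicate 1. The median sums in AAV2-GFP mice were 0.386 and 27.2 CPM. That replicate was also the highest mouse in the microglia and macrophage gene that fell.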
